A study of Mus musculus with 6 samples.

Results

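The 10 genes described here encode proteins that fuse mitochondria (Mfn1, Mfn2, Opa1), divide them (Dnm1l, Fis1, Mff) or mark them for removal by autophagy (Pink1, Bnip3, Bnip3l, Fundc1). They were chosen by gene symbol, and each symbol matched 1 row among the 54532 genes of the table. RNA had been sequenced from the myocardium of 6 hypertrophic hearts of wild type C57BL/6 mice aged 18 weeks. The 3 control hearts had received AAV9-EGFP, an adeno-associated virus of serotype 9 carrying green fluorescent protein. The other 3 had received AAV9-anti-miR-199a TuDs, the same type of virus carrying tough decoys (TuDs), designed RNA hairpins to which a microRNA binds in place of its target transcripts. Both groups therefore carried hypertrophy and a virus. The labels do not give the sex of the animals, the way hypertrophy was induced, the promoter that drove the decoys, or whether each sample was a separate animal, so the p-values measure the spread between these samples, which may be partly technical.

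Mitochondria of heart muscle are kept in balance by fusion and division, and damaged ones are cleared by mitophagy. The mitofusins MFN1 and MFN2 are GTPases that tether and fuse the outer membranes, and OPA1, a dynamin-like GTPase, fuses the inner membranes and shapes the cristae. Division is carried out by DRP1, the cytosolic dynamin encoded by Dnm1l, which is recruited by adaptors of the outer membrane such as MFF, while FIS1 is an outer membrane protein linked to division and to the clearance of mitochondria. PINK1 is a kinase that accumulates on depolarised mitochondria and phosphorylates ubiquitin there. BNIP3, its relative NIX (encoded by Bnip3l) and FUNDC1 are receptors in the outer membrane that bind LC3 proteins directly and have been described in mitophagy during hypoxia and in heart muscle.

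The libraries held 15.2 to 18.2 M reads (M, megareads) counted to genes. A level is given as normalised FPKM, the deposited value divided by a size factor of the library. FPKM is fragments per kilobase of gene and per megaread of the library size that the submitters used. All 10 genes passed the filter on low values (FPKM of at least 1 in at least 3 samples), as did 10460 genes in all. Differences were tested with limma on log2(normalised FPKM + 0.5), with Benjamini-Hochberg adjustment over all 10460 genes and a threshold of 0.05, and log2 fold changes are TuD minus control. In these bulk samples, fewer cells of a type and less RNA per cell cannot be told apart. The libraries differed in Y-linked transcripts, which summed to an FPKM of 8.32 to 9.59 in the controls and 12.5 in TuD replicate 3, but to 0.0254 and 0.00711 in TuD replicates 1 and 2. Fold changes also followed gene length over the tested genes (r = -0.386 across 10460 genes, which are not independent replicates), with long genes lower and short genes higher in the TuD group.

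The decoys are directed at miR-199a, whose strands are miR-199a-5p and miR-199a-3p. Their mature sequences in RefSeq (GRCm38.p6) are shown because the seed, bases 2 to 8 in capitals, is the part that pairs with targets.
miR-199a-5p: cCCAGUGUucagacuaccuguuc
miR-199a-3p: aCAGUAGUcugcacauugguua
Both strands come from hairpins at chr1:162217814-162217923 (plus strand) and chr9:21496495-21496564 (minus strand). The hairpin on chromosome 9 lies within Dnm2 and that on chromosome 1 within Dnm3, each on the strand opposite to the dynamin gene. Dnm2, which encodes a dynamin with a described part in membrane scission, measured 20.5 ± 0.957 normalised FPKM in control hearts against 19.0 ± 1.30 with the decoys (SD, n = 3; log2 fold change -0.10, limma adjusted p = 0.466).

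The longest annotated 3' UTR of each of the 10 genes was searched for a match to either seed: ACACTGG or CACTGGA for miR-199a-5p, and ACTACTG or CTACTGA for miR-199a-3p, on the transcript strand, where an overlapping pair counted as 1 site of 8 bases. A single site each was found in 5 genes. The sites are shown with 10 bases on either side, as the transcript reads, with the matched bases in capitals (GENCODE M21, mm10).
Fis1, miR-199a-5p, chr5:136966053-136966080, plus strand: agcctgggggACACTGGAagaggggcct
Mfn1, miR-199a-5p, chr3:32577917-32577943, plus strand: ggcgtgtcccCACTGGAagctttgatt
Bnip3, miR-199a-5p, chr7:138891146-138891172, minus strand: ttgccaaatcCACTGGAgaatactata
Fundc1, miR-199a-5p, chrX:17557636-17557662, minus strand: tgattatcatCACTGGAtatagtggag
Bnip3l, miR-199a-3p, chr14:66987717-66987743, minus strand: ctgccagcacCTACTGAgggagacgaa
The Fis1 site was the 1 match of 8 bases and stood at bases 49 to 56 of a 3' UTR of 220 bases. Of the 606 tested genes whose 3' UTR had a length within 0.8 to 1.25 times that of Fis1, 5.28% held a miR-199a-5p site of 7 or 8 bases. The share with a site of 8 bases is not given here. The other shares, each among genes of similar 3' UTR length, were 34.1% for Mfn1, 18.5% for Bnip3 and 25% for Fundc1 (miR-199a-5p), and 24.7% for Bnip3l (miR-199a-3p). The longest 3' UTRs of Mfn2, Opa1, Dnm1l, Mff and Pink1 held neither pair of 7-base matches. That of Pink1 belongs to a transcript of 3 exons, where the gene has transcripts of up to 9. Other transcripts were not searched. Over all 9549 tested genes with an annotated 3' UTR, the 2218 genes with a miR-199a-5p site had a median of -0.09 in log2 fold change, against 0.02 for the 7331 without one. For miR-199a-3p the medians were -0.07 for 1308 genes with a site and -0.001 for 8241 without. Neither pair of medians was matched for 3' UTR length, and fold changes followed gene length over the tested genes. A match is a description of the sequence and does not show that the site is used.

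The levels of the 10 transcripts, which are per length, spanned a wide range within the heart. In the controls the order was Pink1 (376 ± 5.19 normalised FPKM, SD, n = 3), Mfn2 (253 ± 14.0), Bnip3 (62.3 ± 12.4), Fis1 (59.1 ± 4.69), Mfn1 (52.4 ± 2.31), Opa1 (19.0 ± 1.07), Dnm1l (10.6 ± 1.17), Bnip3l (10.1 ± 0.261), Mff (8.51 ± 0.407) and Fundc1 (5.39 ± 0.835). The neighbours Bnip3 and Fis1, and Dnm1l and Bnip3l, overlapped between libraries, and the other neighbours did not. In the TuD group Fis1 stood above Bnip3 and Bnip3l above Dnm1l, and the overlapping neighbours were Fis1 and Bnip3, Bnip3 and Mfn1, Opa1 and Bnip3l, and Bnip3l and Dnm1l. Pink1 lay above 98.6% of all tested genes in mean level and Fundc1 above 55.0%.

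**Figure D1:**
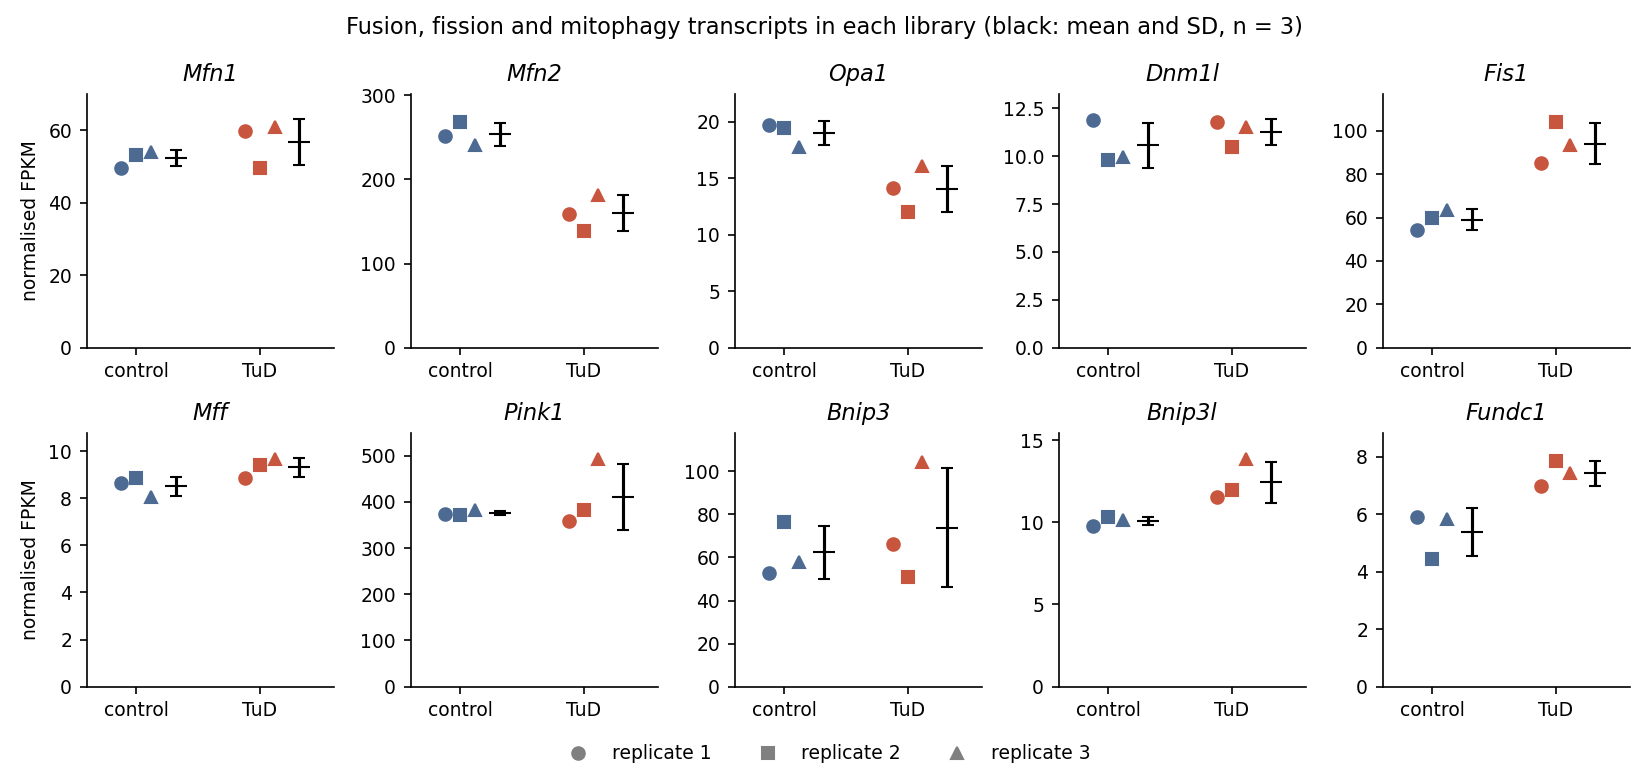
Normalised FPKM (linear axes from 0) of the 10 genes in the 3 control and 3 TuD libraries, 1 symbol per replicate, with the mean and SD of each group in black. Mfn2 and Opa1 lie lower and Fis1 and Fundc1 higher in all 3 TuD libraries, and TuD replicate 3 stands at 104 for Bnip3 and 493 for Pink1, above the other libraries.

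Among the fusion genes, Mfn2 and Opa1 fell and Mfn1 did not pass the test. Mfn2 (ENSMUSG00000029020, chromosome 4, 147873599 to 147904704, minus strand in mm10) measured 252, 268 and 240 normalised FPKM in control replicates 1, 2 and 3 and 159, 139 and 182 in TuD replicates 1, 2 and 3. The highest TuD library lay below the lowest control. The log2 fold change was -0.67 ± 0.13 (SE; 95% interval -0.96 to -0.38, limma adjusted p = 0.00833), and the mean fell by 36.8%. The values rested on 75821 control and 38759 TuD reads. Mfn2 passed in 21 of 22 alternative settings, leaving out each library included (adjusted p 0.00429 to 0.0379). The exception was a model with the presence of Y-linked transcripts as a covariate (-0.48, adjusted p = 0.0768), which rests the estimate on TuD replicate 3 alone.

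Opa1 (ENSMUSG00000038084, chromosome 16, 29579334 to 29654884, plus strand) measured 19.8, 19.5 and 17.8 normalised FPKM in the controls and 14.1, 12.0 and 16.1 in TuD replicates 1, 2 and 3. The groups did not overlap, and TuD replicate 3 lay closest to the controls. Its log2 fold change was -0.43 ± 0.13 (SE; 95% interval -0.72 to -0.14, limma adjusted p = 0.0352). The call ended when any 1 library other than TuD replicate 3 was left out (adjusted p 0.0683 to 0.103; 0.0139 without TuD replicate 3), after a correction for gene length (-0.28, 0.0903), with the Y-linked covariate (-0.23, 0.309), and with no filter on low values (0.0687). Over all alternatives it held in 12 of 22. Opa1 is spliced into isoforms that differ in their processing by proteases, and gene-level values do not separate them.

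Mfn1 (ENSMUSG00000027668, chromosome 3, 32529465 to 32579239, plus strand) measured 49.7, 53.3 and 54.1 normalised FPKM in the controls and 59.9, 49.6 and 61.0 in the TuD libraries. The groups overlapped, since TuD replicate 2 lay below all controls. The log2 fold change was 0.11 with a 95% interval of -0.15 to 0.37 (limma adjusted p = 0.485). The summed level of the 2 mitofusins was 294 to 321 normalised FPKM in the controls, against 189 to 243 with the decoys, a value that was not tested. Mfn1 made up 17.1 ± 1.05% of this sum in control hearts, against 26.2 ± 1.14% with the decoys (SD, n = 3).

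Among the division genes, Fis1 rose, while Dnm1l and Mff did not pass. Fis1 (ENSMUSG00000019054, chromosome 5, 136953275 to 136966234, plus strand) measured 54.2, 59.7 and 63.5 normalised FPKM in the controls and 85.2, 104 and 93.4 in TuD replicates 1, 2 and 3. Every TuD library lay above every control. On the log2 scale the difference was 0.67 ± 0.12 (SE; 95% interval 0.40 to 0.93, limma adjusted p = 0.00643), a mean 1.59 times that of the controls, from 5835 control and 7464 TuD reads. Fis1 passed in 21 of 22 alternatives, leaving out each library included (adjusted p 0.00800 to 0.0298). The exception was rescaling to TPM (0.28, adjusted p = 0.145), under which the median over the tested genes was -0.36. Fis1 is a short gene (1714 bases in the table), and after the length correction its log2 fold change was 0.44 (adjusted p = 0.0141).

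Dnm1l (ENSMUSG00000022789, chromosome 16, 16312230 to 16358959, minus strand) measured 11.9, 9.80 and 9.98 normalised FPKM in the controls and 11.8, 10.5 and 11.5 in the TuD libraries. Control replicate 1 was the highest of all 6, so the groups overlapped. Its log2 fold change was 0.09 (95% interval -0.17 to 0.35, limma adjusted p = 0.568). Mff (ENSMUSG00000026150, chromosome 1, 82724890 to 82752394, plus strand) measured 8.63, 8.84 and 8.06 in the controls and 8.86, 9.43 and 9.65 in the TuD libraries. The groups were separated by a margin smaller than the spread within either, and the log2 fold change was 0.12 (95% interval -0.10 to 0.35, limma adjusted p = 0.368). The values of both genes turned negative after rescaling to TPM and after the correction for length and GC content, without passing the threshold.

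Among the mitophagy genes Fundc1 rose, Bnip3l, Bnip3 and Pink1 did not pass, and Bnip3 and Pink1 varied most within the TuD group. Fundc1 (ENSMUSG00000025040, chromosome X, 17556564 to 17572325, minus strand) measured 5.92, 4.43 and 5.83 normalised FPKM in the controls and 6.99, 7.87 and 7.43 in the TuD libraries. All TuD libraries lay above the controls. Its log2 fold change was 0.44 ± 0.13 (SE; 95% interval 0.14 to 0.74, limma adjusted p = 0.0387), from 205 to 291 reads per library, the lowest read numbers of the 10 genes. This call ended when any 1 of the 6 libraries was left out (adjusted p 0.0524 to 0.126), after the length correction (0.33, 0.0978) and the length and GC correction (-0.08, 0.593), after rescaling to TPM (0.08, 0.665), with the Y-linked covariate (0.44, 0.152) and with no filter (0.0909). It held in 9 of 22 alternatives. Fundc1 is X-linked, and TuD replicate 3, the TuD library with Y-linked transcripts, stood at 7.43. The part of the difference in Y-linked transcripts in the values of Fundc1 cannot be told apart from that of the decoys in the other TuD libraries.

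Bnip3l (ENSMUSG00000022051, chromosome 14, 66985239 to 67008877, minus strand) measured 9.79, 10.3 and 10.1 normalised FPKM in the controls and 11.5, 12.0 and 13.9 in the TuD libraries. The groups did not overlap. The log2 fold change was 0.29 ± 0.11 (SE; 95% interval 0.04 to 0.53), which missed the threshold (limma adjusted p = 0.0744) and passed in none of the 22 alternatives (adjusted p 0.0553 to 0.710, with an unadjusted p of 0.0262 in the fit reported). Bnip3 (ENSMUSG00000078566, chromosome 7, 138890836 to 138909519, minus strand) measured 52.9, 76.3 and 57.8 in the controls and 66.3, 50.8 and 104 in TuD replicates 1, 2 and 3. TuD replicate 2 was the lowest and TuD replicate 3 the highest of all 6 libraries. The log2 fold change was 0.20 (95% interval -0.38 to 0.78, limma adjusted p = 0.586) and -0.08 without TuD replicate 3. The TuD coefficient of variation of Bnip3 was 37.3%, against 2.05% from counting alone.

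Pink1 (ENSMUSG00000028756, chromosome 4, 138313409 to 138326307, minus strand) measured 374, 372 and 382 normalised FPKM in the controls and 358, 383 and 493 in the TuD libraries. The controls agreed to a coefficient of variation of 1.38%, whereas that of the TuD group was 17.4%, set by TuD replicate 3. Its log2 fold change was 0.12 (95% interval -0.21 to 0.44, limma adjusted p = 0.563) and -0.02 without TuD replicate 3. Over the alternatives it ranged from -0.28 with quantile normalization to 0.39 with the Y-linked covariate (adjusted p = 0.109), and it passed the threshold in none of them.

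**Figure D2:**
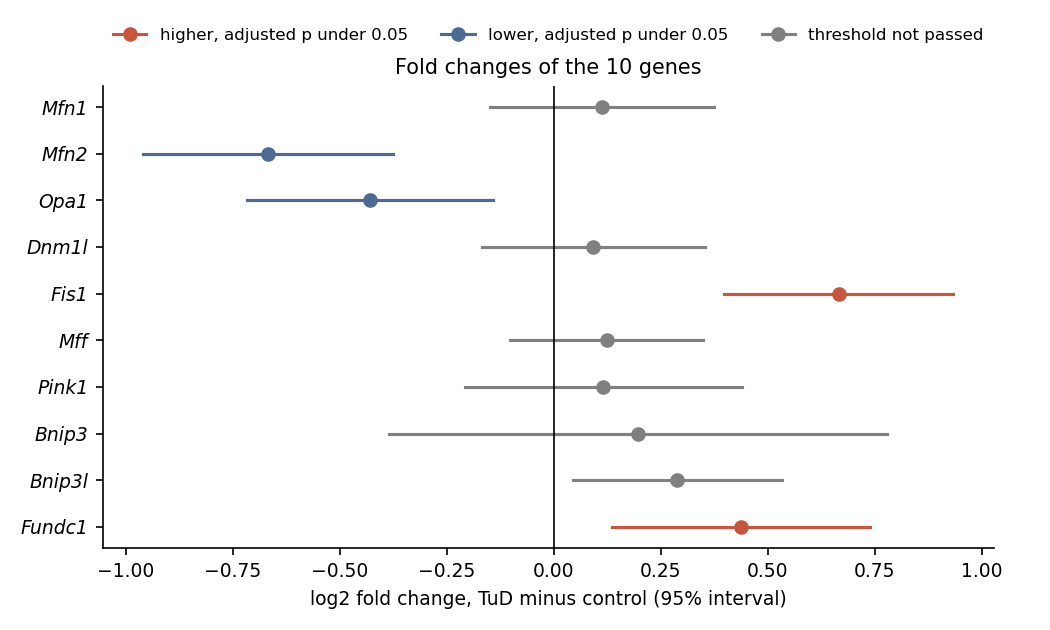
Log2 fold change (TuD minus control, points) of the 10 genes with 95% intervals from limma (lines), grouped by role from fusion at the top to mitophagy at the bottom. Mfn2 (-0.67) and Opa1 (-0.43) are lower, Fis1 (0.67) and Fundc1 (0.44) higher, and the intervals of the other genes except Bnip3l include 0.

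In all, 2 of the 10 genes rose, 2 fell and 6 did not pass. Over all tested genes 29.1% passed in either direction, 14.8% higher and 14.2% lower, beside 40% for the 10 genes (4 of 10). The groups did not overlap for 6 of the 10, with the TuD group higher for 4 and lower for 2. Over all tested genes they did not overlap for 47.9%, higher for 23.5% and lower for 24.4%. The median log2 fold change of the 10 was 0.12, and that of all tested genes 0.01. For each of the 6 genes whose groups did not overlap, an exact two-sided permutation test of the log2 values gave p = 0.1, the smallest that 3 samples against 3 allow. It gave 0.4 for Mfn1 and Dnm1l and 0.7 for Bnip3 and Pink1.

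Within the TuD group, 1 library stood at the upper end for most of these genes. TuD replicate 3 was the highest of the 3 for 7 of the 10 (Mfn1, Mfn2, Opa1, Mff, Bnip3, Bnip3l and Pink1) and the lowest for none, where it was the highest for 36.9% and the lowest for 36.9% of all tested genes. TuD replicate 2 was the lowest for 5 (Mfn1, Mfn2, Opa1, Dnm1l and Bnip3) and for 35.5% of all tested genes. TuD replicate 1 was the lowest for the other 5 (Fis1, Mff, Bnip3l, Pink1 and Fundc1) and for 27.6% of all tested genes. TuD replicate 3 was also the TuD library with Y-linked transcripts. Its part in the spread was not tested. For the genes that passed, TuD replicate 3 lay on the same side of all 3 controls as the other TuD libraries. Passing the test makes this likely, so it says little about TuD replicate 3.

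Ratios between these transcripts within a library do not depend on the size factor of that library. They still carry the trend of fold changes with gene length (5194 bases for Mfn2 and 1714 for Fis1). The ratio of Mfn2 to Mfn1 was 5.06, 5.03 and 4.45 in control replicates 1, 2 and 3 and 2.65, 2.81 and 2.98 in TuD replicates 1, 2 and 3. The ratio of Mfn2 to Fis1 was 4.64, 4.49 and 3.78 in the controls and 1.87, 1.34 and 1.95 in the TuD libraries. In both cases every TuD library lay below every control. For Mfn2 to Fis1 this had to follow, since Mfn2 was lower and Fis1 higher in every TuD library. Mfn2 to Opa1, the 2 genes that fell, went from 13.3 ± 0.544 to 11.4 ± 0.183 (SD, n = 3), and Pink1 to Mfn2 from 1.49 ± 0.101 to 2.57 ± 0.276, neither pair of groups overlapping. The ratio of the adaptor gene Mff to Dnm1l was 0.812 ± 0.0889 in control hearts, against 0.830 ± 0.0735 with the decoys, and that of Bnip3 to Bnip3l 6.17 ± 1.08 and 5.85 ± 1.64, with overlapping groups in both. These ratios are descriptions and were not tested. Those with a gene that passed use the values behind its call, so their separation is no further evidence. A ratio shows unequal change, not which of its genes moved.

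**Figure D3:**
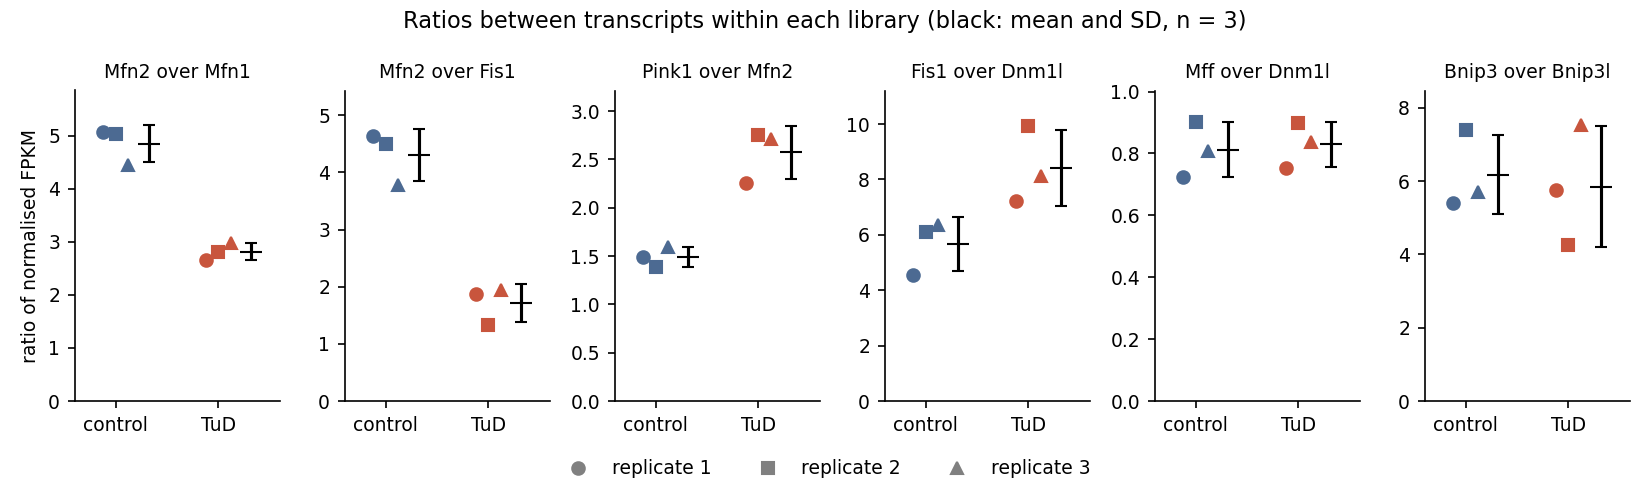
Ratios of normalised FPKM between pairs of genes within each library (linear axes from 0), 1 symbol per replicate, with the mean and SD of each group in black. Mfn2 over Mfn1 and Mfn2 over Fis1 are lower in all 3 TuD libraries. For Mfn2 over Fis1 this follows from the levels of both genes. Mff over Dnm1l (0.812 and 0.830) and Bnip3 over Bnip3l overlap between the groups.

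Other genes of the same processes were taken from 5 lists with 85 names, some of them alternative symbols of 1 gene, of which 78 were found in the table and 70 tested. Of these 70 genes 10 rose, 11 fell and 49 did not pass, or 30% passing, close to the 29.1% of all tested genes, and their median log2 fold change was -0.01. The changes went both ways within most lists.

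In the list of fusion, cristae and OPA1 processing 4 of 16 tested genes rose and 1 fell (median log2 fold change 0.18). Of the complex that organises cristae and its partner in the outer membrane, some genes passed and others did not. Those that rose were the subunit genes Apoo and Chchd3 and the partner gene Samm50: Apoo (0.49 ± 0.11 SE, limma adjusted p = 0.0141), Samm50 (0.41 ± 0.11, 0.0278) and Chchd3 (0.33 ± 0.11, 0.04997). The other subunit genes tested did not pass: Immt, the core subunit, measured 55.0 ± 1.59 and 46.7 ± 5.28 normalised FPKM (-0.24, adjusted p = 0.136), Apool 11.3 ± 0.859 and 13.9 ± 0.687 (0.28, 0.0701) and Chchd6 6.42 ± 0.736 and 6.65 ± 1.11 (0.04, 0.850). Slc25a46, an outer membrane protein that binds mitofusins and OPA1, rose from 5.29 ± 0.235 to 7.35 ± 0.583 normalised FPKM (0.44, adjusted p = 0.0185). Afg3l2, a subunit of the inner membrane AAA proteases, fell (-0.44, adjusted p = 0.0337). The prohibitins, inner membrane scaffolds that stabilise long forms of OPA1, did not pass: Phb measured 151 ± 12.9 and 183 ± 22.6 normalised FPKM (adjusted p = 0.146) and Phb2 73.2 ± 2.34 and 68.2 ± 5.08 (0.469). The calls held in 14 to 16 of 22 alternatives for Apoo, Slc25a46, Samm50 and Afg3l2 and in 5 for Chchd3. Apoo and Apool are X-linked, as is Fundc1.

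In the list of fission adaptors and regulators 3 of 13 fell and 1 rose (median -0.14). Akap1, the anchor that holds protein kinase A at the outer membrane, where the kinase inhibits DRP1, measured 33.9, 39.5 and 39.3 normalised FPKM in the controls and 24.3, 17.1 and 24.1 in the TuD libraries (-0.78 ± 0.15 SE, limma adjusted p = 0.00921). The groups were well separated, and the call held in 21 of 22 alternatives (0.0845 with the Y-linked covariate). Pgam5, a mitochondrial phosphatase known to act on FUNDC1, measured 4.78, 6.24 and 5.60 in the controls and 2.43, 2.22 and 4.15 in the TuD libraries (-0.85 ± 0.21 SE, adjusted p = 0.0191). Its call ended when 1 of 4 libraries was left out (adjusted p 0.0543 to 0.0678; control replicates 2 and 3, TuD replicates 1 and 2), with the Y-linked covariate (-0.37, 0.187) and with no filter (-0.87, 0.0707), and held in 15 of 21 alternatives. Mief2, which encodes the DRP1 receptor MID49, fell (-0.36, adjusted p = 0.0370, held in 12 of 22 alternatives), and Rala, a small GTPase linked to DRP1 phosphorylation in mitosis, rose (0.59, adjusted p = 0.00725, held in 20 of 22). Mtfp1, an inner membrane protein linked to division, measured 135 ± 6.86 and 123 ± 13.1 and did not pass, nor did Mtfr1l, a relative of a fission regulator (40.5 ± 2.16 and 32.6 ± 2.40, adjusted p = 0.0525).

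In the list of the PINK1 branch of mitophagy 2 of 18 rose and 3 fell (median -0.05). Tomm7, a small subunit of the outer membrane import pore that stabilises PINK1 there, measured 38.2, 41.5 and 41.5 normalised FPKM in the controls and 81.7, 90.7 and 66.4 in the TuD libraries. All TuD libraries lay well above the controls, and the log2 fold change was 0.96 ± 0.13 (SE, limma adjusted p = 0.00340), with the call kept in all 22 alternatives (log2 fold change 0.44 to 1.09). The porin genes Vdac1 (-0.44, adjusted p = 0.0429, held in 14 of 22) and Vdac3 (0.45, 0.0169, held in 17 of 22) passed in opposite directions, and Vdac2 did not pass (0.15, 0.274). The autophagy adaptor Nbr1 fell (-0.58, adjusted p = 0.0107, held in 21 of 22), as did Calcoco1 (-0.45, 0.0172, held in 17 of 22), while Sqstm1, encoding p62, measured 185 ± 38.0 and 166 ± 7.54 (adjusted p = 0.529).

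In the list of other receptors and the LC3 family 3 of 17 rose and 3 fell (median 0.06). Ulk1, the kinase that starts autophagy and is known to phosphorylate FUNDC1, measured 21.2, 23.6 and 18.0 normalised FPKM in the controls and 10.2, 10.8 and 11.8 in the TuD libraries. The groups lay far apart, with a log2 fold change of -0.90 ± 0.12 (SE, limma adjusted p = 0.00347) and the call kept in all 22 alternatives. Bcl2l13, another receptor of the outer membrane, fell (-0.74, adjusted p = 0.0172, held in 17 of 22), as did Nlrx1 (-0.34, 0.0490, held in 5 of 21). Fundc2, the relative of Fundc1 and also X-linked, rose from 29.9 ± 0.622 to 43 ± 2.02 normalised FPKM (0.52, adjusted p = 0.00699), with the call lost after rescaling to TPM and after the length and GC correction (-0.09, 0.499). Gabarap, of the LC3 family, rose (0.44, adjusted p = 0.0229, held in 13 of 22), and so did Rheb, the GTPase that activates mTORC1 (0.45, 0.0141, held in 19 of 22), while Map1lc3a, the LC3 gene with the highest level, measured 648 ± 30.3 and 790 ± 64.3 (adjusted p = 0.110). Map1lc3b, another LC3 gene, measured 43.3 ± 3.98 and 47.4 ± 4.10 (adjusted p = 0.411).

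In the list of mitochondrial transport Trak1, an adaptor that links mitochondria to kinesin, fell from 46.7 ± 5.47 to 25.2 ± 2.06 normalised FPKM (-0.87 ± 0.12 SE, limma adjusted p = 0.00347), with the call kept in all 22 alternatives. It was the 1 gene of 6 tested that passed. By limma 0 of the 6 rose, with 1 at an unadjusted p under 0.05 and 0 by limma-voom, which called 2 lower. Its relative Trak2 measured 24.3 ± 3.70 and 20.9 ± 1.57 (adjusted p = 0.272), and Rhot2, which encodes the outer membrane GTPase MIRO2, 27.6 ± 4.54 and 22.7 ± 1.21 (0.157).

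**Figure D4:**
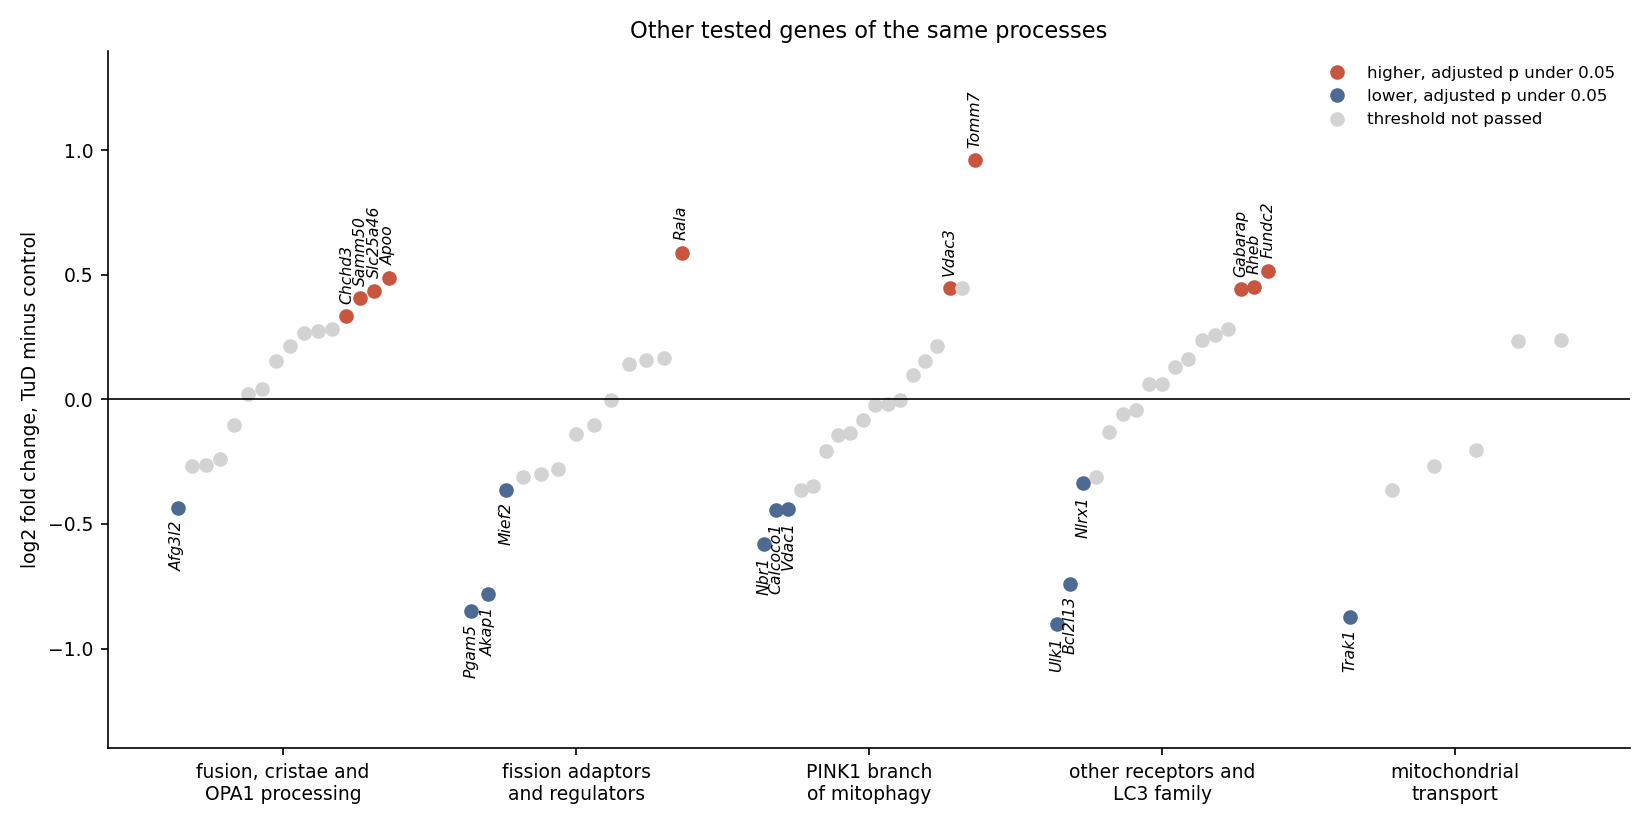
Log2 fold change (TuD minus control) of the 70 tested genes of the 5 lists, ordered within each list, with genes past an adjusted p of 0.05 coloured and named. Tomm7 (0.96) lies highest and Ulk1 (-0.90), Trak1 (-0.87) and Pgam5 (-0.85) lowest, and most lists hold genes in both directions.

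The exon union of each gene in GENCODE M21 equals the length given in the table, and the coordinates are the same. Annotated genes overlapped the exons of Dnm1l (Gm49521), Mff (C430014B12Rik), Bnip3 (Gm45507) and Pink1 (Mir7019 and Gm27646), and these had at most 18 reads in a group. Gm45507, on the strand opposite to Bnip3, covers 22.3% of the Bnip3 exon bases. The strand setting and the treatment of reads in shared exons are not given in the sources used here, so how reads in these stretches were assigned is unknown. Bnip3l has a processed pseudogene, Bnip3l-ps (ENSMUSG00000073198, chromosome 12, 18216542 to 18217673), at 3.01 ± 0.108 and 2.48 ± 0.479 normalised FPKM, with 196 control and 131 TuD reads against 2238 and 2233 reads of Bnip3l. Reads that match both cannot be assigned with certainty.

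The expression pattern most like that of Mfn2, the gene with the lowest fold change of the 10, was that of Myocd (Pearson r = 0.999 of log2 levels over 6 samples), and Pm20d1 (0.998) was among the next. For Fis1, with a fold change of similar size in the other direction, the closest were Timm8b (0.999), Fkbp2 (0.998) and Erp29 (0.997). With 6 samples in 2 groups such values are common: 617 genes exceeded r = 0.95 with Mfn2 and 444 with Fis1.

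The settings moved the 10 genes in different ways. After rescaling to TPM each of the 10 log2 fold changes was lower, by an amount close to the shift of the median gene to -0.36, so the direction of each is relative to the median gene. Mfn2 and Fis1 kept their direction in every setting tried, and Opa1 did as well. The length correction raised the values of Mfn2, Opa1 (-0.43 to -0.28) and Mfn1 (0.11 to 0.23) and lowered those of Fis1 and Fundc1 (0.44 to 0.33). It brought Mfn2 from -0.67 to -0.58 and Fis1 from 0.67 to 0.44, and the correction for length and GC content to -0.49 and 0.53, all past the threshold.

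**Figure D5:**
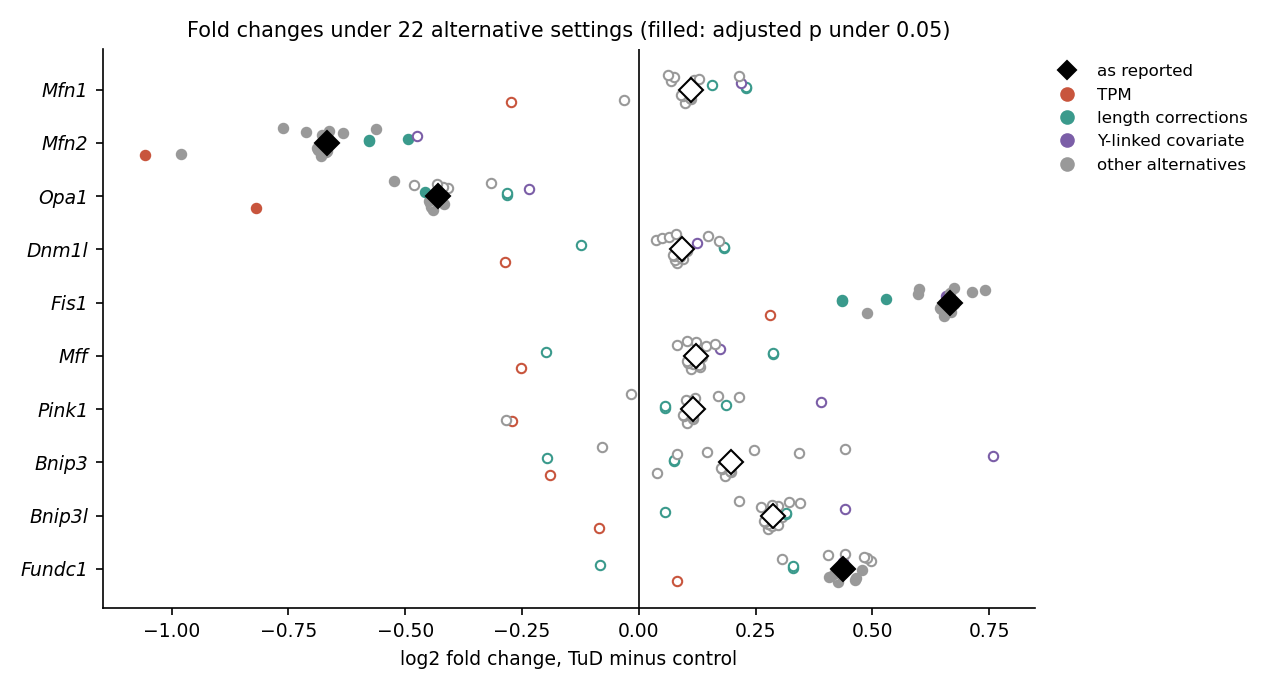
Log2 fold change (TuD minus control) of the 10 genes as reported (diamonds) and under 22 alternative settings (circles), filled where the adjusted p was under 0.05. Mfn2 stays between -1.06 and -0.48 and Fis1 between 0.28 and 0.74, while Bnip3 spans -0.20 to 0.76 around 0.

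Markers of cell types were set beside these values. The summed level of 6 cardiomyocyte markers was 23380 to 24487 normalised FPKM in control hearts, against 24661 to 31038 with the decoys. These sums did not overlap, by a small margin, and the markers did not move together. In mean level 3 of 6 were higher (limma adjusted p under 0.05): Myl2 (4891 in controls, 8402 with the decoys), Tnni3 (3064 and 4631) and Tnnt2 (882 and 1297). The other 3 did not pass: Actc1 (11205 and 9801.5), Ryr2 (32.0 and 26.5) and Myh6 (3895 and 4022). Macrophage (84.9 to 101 and 92.7 to 172), fibroblast (103 to 114 and 103 to 156), endothelial (160 to 200 and 145 to 214), smooth muscle and pericyte (124 to 167 and 124 to 240) and erythroid markers (1146 to 1612 and 1374 to 3290) overlapped between the groups. Of these lists fibroblast markers had 1 gene higher and 1 lower, smooth muscle and pericyte 1 higher, erythroid 2 higher, and endothelial and macrophage none. Adipocyte markers (0.0686 to 0.816 and 3.61 to 10.6) and skeletal muscle markers (0.394 to 0.696 and 1.16 to 2.47, with Myh4 at 0 in every library) were separate but low. The 1 tested gene of each list was higher with the decoys. These were Cfd (log2 fold change 2.72, limma adjusted p = 0.00419, 1 to 134 reads per library) and Tnni2 (1.17, 0.00546, 10 to 46 reads). Mitochondrial transcripts took 5.31 to 12.0% of reads in control hearts, against 11.1 to 17.5% with the decoys. The part of these differences in the values of the 10 genes was not tested.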

How the data were processed

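The authors deposited FPKM per gene. The submitters' processing notes name HISAT2 2.0.5, featureCounts 1.5.0-p3 and the mm10 build. The annotation release, strand setting and treatment of reads matching several places are not given in the sources used here. Values times gene length, divided by what 1 read is worth in each library (a step inferred from the low values), were whole numbers (tolerance 0.05 of 1 read) in 100% of cells above 0, which gave the reads per library. The library size implied by the deposited FPKM was 1.04 to 1.06 times these reads in the controls. In TuD replicates 1, 2 and 3 it was 0.946, 0.943 and 1.01 times. Each FPKM column was scaled by a median-of-ratios size factor (0.989 to 1.01, over tested genes with values in all libraries). The test was a 2-group limma model with a mean-variance trend, two-sided, on all 6 samples, grouped by the labels alone. A pseudocount of 0.5 understates changes of low genes.

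The genes, lists and alternatives were chosen with earlier results of these data known. Named genes were the 10 genes and, by list, up to 6 past the threshold and 2 not past it with the highest levels; Dnm2, Immt, Apool and Chchd6 fall outside that rule, the last 3 chosen after their values were seen. The rule also took, for the genes with the lowest and the highest fold change, the 3 protein-coding genes most alike over the samples, 1 of which is not reported here. Alternatives covered scaling, pseudocount, filter, variance model, limma-voom on the recovered reads with TMM factors, replicate block, length and GC corrections (lowess span 0.3; GC content known for 99.9% of tested genes), protein-coding genes, a Y-linked covariate and leaving out each library. The pipeline was run on simulated data that held neither a trend with gene length nor a split in Y-linked transcripts. That run checks the code and says nothing about these 2 features of the libraries. Sites were searched in 3' UTRs derived from GENCODE M21. Tools were R 4.3.3, limma 3.58.1, Python 3.11.15, numpy 2.4.6, pandas 2.3.3 and matplotlib 3.10.9.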

Additional observations from a re-analysis of the deposited data

How the results depend on the processing

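Of the genes tested, 1550 were higher and 1489 lower in the fit reported, with 2 and 2 of the 10 genes and 10 and 11 of the listed genes. With rescaling to TPM the counts were 438 and 4202 of all genes, 0 of the 10 higher, and 1 and 31 of the listed genes. With quantile normalization 6 listed genes were higher. With no filter, over 22702 genes, 887 and 964 genes, 1 and 1 of the 10, and 5 listed genes lower remained past the threshold. The length correction left 1 and 1 of the 10. The length and GC correction left 954 genes higher and 1 of the 10 higher. The Y-linked covariate left 638 and 543 genes, 1 and 0 of the 10, and 4 and 2 listed genes. Leaving out 1 library gave 863 to 1659 genes higher and 714 to 1583 lower, 1 of the 10 higher each time and 1 to 2 lower, and 4 to 11 and 4 to 12 listed genes; the lowest counts of tested and of listed genes came without control replicate 2, and those without control replicate 3 were 944 and 848 of all genes and 5 and 5 of the listed ones. Among the named genes past the threshold, the log2 fold changes that turned sign were those of Chchd3 with TPM (-0.053), and of Fundc1 (-0.082) and Fundc2 (-0.087) with the length and GC correction. Those of the 6 genes of the 10 that did not pass were all negative with TPM (-0.29 for Dnm1l to -0.086 for Bnip3l). The causes were not tested.

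The labels number replicates 1 to 3 in both groups. Same-numbered samples had correlations of their deviations from the group means of 0.0640, 0.0885 and -0.0555. Samples of unlike number had -0.161 to 0.0936, and TuD replicates 2 and 3 correlated better with another number. Deviations from a mean of 3 samples constrain each other, so these values cannot decide whether the numbers pair the samples. The replicate block left 1447 and 1195 genes, 1 and 1 of the 10 (the calls of Opa1, adjusted p = 0.0619, and Fundc1, 0.0678, ended) and 7 listed genes lower; with the length correction as well, the block left 957 genes higher and 1 and 1 of the 10. At 205 to 291 reads per library, counting alone gives Fundc1 a coefficient of variation of 6.45% in the controls.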
